A study of Glycine max with 24 samples.

Results

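The response of soybean (Glycine max) leaves to microbe-associated molecular patterns (MAMPs) was compared between a pair of parental lines, LD and LDX, and a pair of recombinant inbred lines (RILs) from their cross, R-11268 and R-11272. A RIL carries a fixed mixture of its parents' genomes, reached by selfing over many generations. The comparison took, for each transcript, the mean of the MAMP minus control log2 differences of LD and LDX and set it against the mean of those of R-11268 and R-11272. It used 24 of the 24 libraries of the series, 12 from parents and 12 from RILs. The groups were LD MAMP, LD control, LDX MAMP, LDX control, R-11268 MAMP, R-11268 control, R-11272 MAMP and R-11272 control, with 3 libraries in each. MAMP libraries came from leaf slices held for 30 min in 5 ml that contained flg22 at 1 µM together with 50 µg chitin from crab shells, and control libraries from slices held in 5 ml of water with the same amount of DMSO. In all 8 groups the leaves were trifoliolate, came from plants aged 3 weeks grown with 16 h of light, were infiltrated with water, pooled over 5 plants per genotype, sliced, floated on water overnight and handled in the dark. The labels do not say that replicates came from separate plantings, so p-values measure the spread between these libraries. The RILs are single lines, so the comparison rests on 2 lines against 2, for which an exact two-sided permutation test of 1 value cannot give a p below 0.333.

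As background, flg22 is a stretch of bacterial flagellin that plants bind with the receptor kinase FLS2, and chitin is a polymer of fungal walls bound by receptors with LysM domains. Both receptors open an early immune programme of calcium influx, an oxidative burst and protein kinase cascades, and transcripts for transcription factors and defence enzymes rise within minutes. How far a transcript rises depends on its level before treatment as well as on its level after it, so both are given below.

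The deposited table held estimated counts for 41743 transcripts, with library totals between 9780810 and 20827163, and 33214 transcripts passed the filter on low counts. None of the identifiers occurred in the table of gene names used here (0 matched), so transcripts are given by identifier and chromosome, with no function, and leaf marker genes were not checked. The values are fitted ones. In each replicate of a line, log2 MAMP to control ratios were centred on their median over all transcripts. The centred ratio was the same in replicates 1, 2 and 3. Its SD was under 0.001 for 100% of transcripts above 0.1 estimated counts, so replicates differed only by a shift shared by all transcripts. The table thus holds no separate replicate error of a response, and the tests below use the spread of levels between 12 pairs of a MAMP and a control library that share a line and a replicate number, called pools here. The deviation of a pool enters the fit in both of its libraries, so the 16 residual degrees of freedom count it double, where 12 pools in 4 lines give 8. For the same statistic, p-values on 8 would be larger. Pools LDX replicate 3, R-11272 replicate 1 and LD replicate 2 stood apart on the first principal component, which held 42.7% of the variance, and counts are also given without them.

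Which transcripts responded more, or less, in both parents than in both RILs? Of 33214 tested, 16 had a more positive response in the parents (0.0482% of all tested) and 6 a more negative one (0.0181%), by edgeR's quasi-likelihood test at an adjusted p under 0.05. The 22 calls fell into 3 patterns. In 12 the transcript rose after MAMP in the mean of the parents and in that of the RILs, and rose further in the parents. In 4 the mean response was positive over the parents and negative over the RILs, and in 6 it was negative over the parents and positive over the RILs. These signs are those of the means: both RILs had a negative response in 3 of the 4 and a positive one in 2 of the 6. Tested by itself with edgeR, the RIL mean response was called in only 1 of the 4 and 2 of the 6. The parental mean response was called in 3 of the 4 and 6 of the 6. For most of these transcripts the sign of the RIL mean is thus not established. No call had both mean responses positive with the larger one in the RILs, and none had both means negative. Both parental responses lay above both RIL responses in 15 of the 16 and below them in 6 of the 6. Over all tested transcripts the same order held for 20.5% and 17.4%, so the order by itself is common. Differences ranged from 1.00 to 2.96 on the log2 scale among the 16 and from -3.33 to -0.58 among the 6. Over all tested transcripts the 5th percentile was -0.55, the 95th 0.73 and the median 0.02. By edgeR, the last calls inside the threshold had adjusted p = 0.0412 and 0.0478, and the first outside it 0.0513 and 0.0798.

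**Figure D1:**
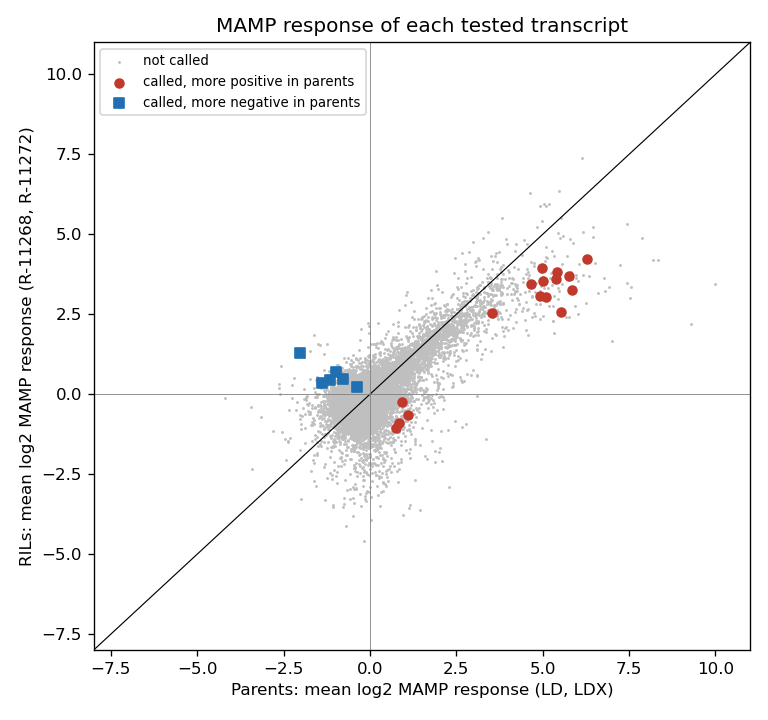
Mean log2 MAMP response of the parents (x axis) against that of the RILs (y axis) for each of the 33214 tested transcripts, with the line of equal response in black. The 12 called transcripts at the upper right, with parental responses of 3.53 to 6.27, sit below the line, 4 more lie at the lower right of the origin, and the 6 with a more negative response in the parents lie at its upper left.

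The number of calls depended on how the error was set and on each line. With the 4 lines as replicates limma called 0 transcripts. Of the 33214 tested, 2557 had an unadjusted p under 0.05 by limma, against 1329 by edgeR. With uniform p-values a share of 0.05 would fall under that limit. The edgeR count lies below that share and the limma count above it. The 2557 held 18 of the 22, but both tests use the same responses, so this overlap is no independent support. DESeq2 called 30 (24 more positive in parents and 6 more negative), of which 18 were among the 22. Without the 3 pools apart edgeR called 123 (105 and 18), 18 of the 22 among them. Without LD 4 transcripts were called (3 and 1), without LDX 17 (16 and 1), without R-11268 24 (6 and 18) and without R-11272 9 (9 and 0). The number of more positive calls thus dropped most without LD and R-11268, and no call with a more negative parental response was left without R-11272. Leaving out 1 library gave 10 calls (without LD control replicate 1 or R-11272 MAMP replicate 2) to 22, with 11 without LDX control replicate 2 and 14 without LD MAMP replicate 3 or R-11268 control replicate 2. Leaving out 1 pool, with both of its libraries, gave between 6 (without R-11268 replicate 1) and 25 calls (without R-11272 replicate 1), and all pools but LD replicate 1, LDX replicate 3 and R-11272 replicate 1 brought the count to 13 or fewer. A replicate block gave 11063 calls and is void here, since the fitted values leave a response no scatter between pools.

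The largest pattern was a strong rise in all 4 lines that went further in both parents. For these 12 transcripts the log2 response had a median of 5.20 in LD and 5.31 in LDX, against 3.11 for R-11268 and 3.69 for R-11272. R-11268 had the smallest response of the 4 lines for 10 of the 12 and R-11272 for the other 2. Parental means ran from 3.53 to 6.27 and RIL means from 2.53 to 4.24. One transcript of the 12 broke the order of lines, Glyma06g14090.1, named after its values were seen, with responses of 5.71 in LD and 4.27 in LDX against 3.45 for R-11268 and 4.41 for R-11272.

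Glyma17g01520.1 on chromosome 17 had the lowest p of all. After MAMP it reached 77.1, 83.8 and 91.5 CPM (estimated counts scaled to the size of the library) in LD and 44.7, 45.2 and 46.6 CPM in LDX, against 40.4, 50.0 and 55.7 CPM in R-11268 and 38.7, 32.15 and 31.4 CPM in R-11272. In control libraries it held 0.867, 0.965 and 1.04 CPM in LD and 0.640, 0.633 and 0.702 CPM in LDX, against 2.96, 3.60 and 4.06 CPM in R-11268 and 1.46, 1.25 and 1.21 CPM in R-11272. Every parental control library thus lay below every RIL control library, while after MAMP LDX lay within the range of the RILs and LD above it. The log2 responses were 6.45 in LD and 6.10 in LDX, against 3.78 for R-11268 and 4.70 for R-11272. That is a difference of 2.04 ± 0.15 (SE; edgeR adjusted p = 3.18e-06), and the counting error of the 8 group totals alone gives an interval of 1.64 to 2.43. The counting SE alone was 0.20, above the SE of the fit, so this SE and its p are likely too small. The same holds below for Glyma02g01190.1, Glyma14g02290.1, Glyma11g02050.1 and Glyma15g05760.1.

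Glyma02g01190.1 on chromosome 2 showed a wider gap between the parents themselves. After MAMP it reached 53.2, 71.45 and 64.0 CPM in LD but 12.3, 9.52 and 18.6 CPM in LDX, against 13.25, 13.2 and 13.3 CPM in R-11268 and 14.9, 8.965 and 9.88 CPM in R-11272. In control libraries it held 1.46, 2.04 and 1.79 CPM in LD and 0.137, 0.115 and 0.1755 CPM in LDX, against 1.72, 1.71 and 1.70 CPM in R-11268 and 1.28, 0.75 and 0.844 CPM in R-11272. LD thus stood out by its level after MAMP and LDX by its low control level, where 3 libraries held 5.997 estimated counts in all. Their log2 responses were 5.16 and 6.52, against 2.95 for R-11268 and 3.56 for R-11272, so the difference was 2.59 ± 0.27 (SE; edgeR adjusted p = 0.000262; counting interval 1.92 to 3.25). With the lines as replicates the adjusted p was 0.456 for Glyma17g01520.1 and 0.491 for Glyma02g01190.1. Both calls held in each of the other 49 alternatives run for them, the void block included.

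Across the 12 transcripts, LD had the highest mean level of the 4 lines after MAMP for 12 of the 12, and R-11268 the highest control level for 10. Among all 330 transcripts that rose 8-fold or more in the mean over the 4 lines, these shares were 53.6% and 29.7%. The 12 were picked by a contrast of these same levels, so their counts only describe them. As medians over the 12, the parents were 0.66 higher than the RILs in MAMP libraries and -1.14 on the same log2 scale in control libraries. The comparison of MAMP libraries called 1436 transcripts of all tested (4.32%), and that of control libraries 675 (2.03%). Both share their libraries with the response difference, so they are its 2 parts and no independent support. Of the 12, 8 were called after MAMP and 11 in controls. In control libraries, 3 of the 12 had every parental library below every RIL library, as had 0.671% of all tested transcripts. Levels by library are log2 CPM with a prior count of 2, which pulls low levels up. By library, the median log2 level of the 12 after MAMP was 6.42, 6.68 and 6.79 in LD and 5.45, 5.66 and 5.92 in LDX, against 5.61, 5.73 and 5.86 for R-11268 and 5.43, 5.20 and 5.18 for R-11272. In controls it was 0.71, 1.32 and 1.31 in LD and 0.45, 0.71 and 1.34 in LDX, against 2.27, 2.43 and 2.72 for R-11268 and 1.61, 1.31 and 1.26 for R-11272. R-11268 controls thus lay above all others, whereas R-11272 controls overlapped those of both parents. Neither list of calls was gathered on a single chromosome. The 16 came from 12 chromosomes, and 5 of the 6 from 4 chromosomes, with Glyma0041s00200.1 on a scaffold. Among the 16, 2 pairs carried locus numbers within 50 of each other, named here after their values were seen: Glyma17g01520.1 with Glyma17g01530.1, and Glyma03g35960.1 with Glyma03g35990.1. How reads shared by similar neighbouring genes were divided is not stated, so each pair may be less than 2 separate observations.

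**Figure D2:**
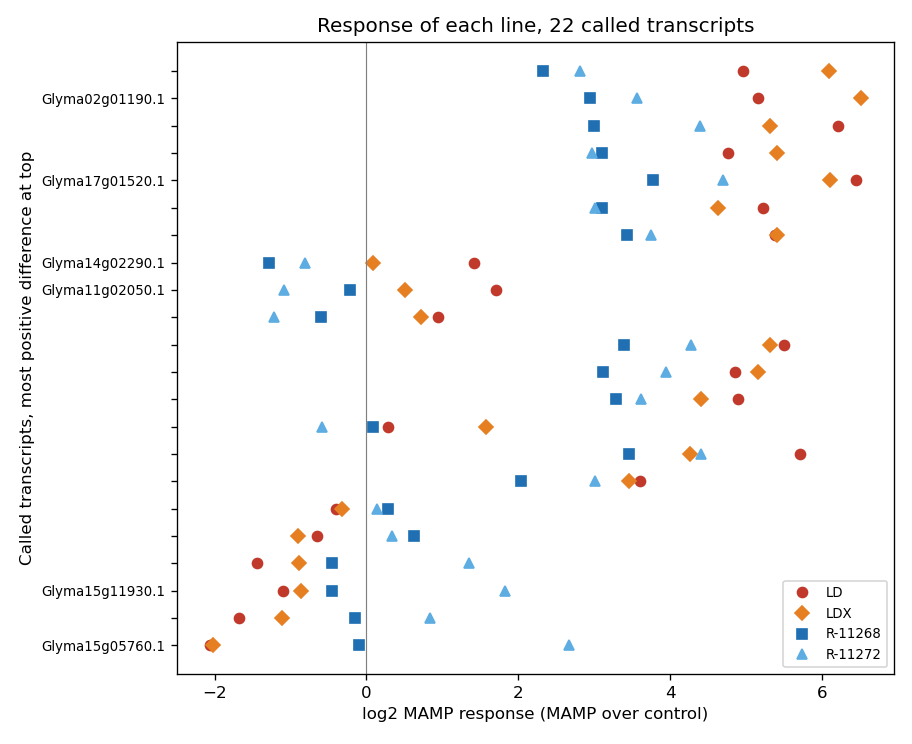
Log2 MAMP response (x axis) of LD, LDX, R-11268 and R-11272 for the 22 called transcripts, ordered by parents minus RILs with the most positive difference at the top. Among the 12 with strong rises the RIL symbols lie left of the parental ones, except for 1 transcript in which R-11272 (4.41) passes LDX (4.27), and at the bottom R-11272 lies furthest right for all but 2.

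In a smaller group the mean response was positive over the parents and negative over the RILs. Both parents were positive in 4 of the 4 and both RILs negative in 3, the exception being Glyma01g37650.1, named after its values were seen, with 0.09 for R-11268. These 4 transcripts were scarce, with a mean of 11.4 to 41.8 estimated counts per library, and had median responses of 0.88 in the parents and -0.78 in the RILs. Glyma14g02290.1 on chromosome 14 held 1.60, 0.985 and 0.935 CPM in LD MAMP and 0.609, 0.550 and 0.861 CPM in LDX MAMP libraries, against 0.405, 0.274 and 0.324 CPM in R-11268 MAMP and 0.590, 0.549 and 0.555 CPM in R-11272 MAMP libraries. Its control levels were 0.596, 0.322 and 0.346 CPM in LD and 0.594, 0.518 and 0.790 CPM in LDX, against 0.969, 0.671 and 0.822 CPM in R-11268 and 1.098, 0.937 and 0.949 CPM in R-11272. MAMP libraries exceeded control libraries in LD, matched them closely in LDX and lay below them in both RILs.

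The log2 responses of Glyma14g02290.1 were 1.42 in LD and 0.08 in LDX, against -1.28 for R-11268 and -0.81 for R-11272, so the difference was 1.80 ± 0.26 (SE; edgeR adjusted p = 0.0109; counting interval 1.07 to 2.53). Glyma11g02050.1 on chromosome 11 held 2.40, 3.64 and 2.62 CPM in LD MAMP and 1.02, 1.54 and 1.64 CPM in LDX MAMP libraries, against 1.099, 1.48 and 1.19 CPM in R-11268 MAMP and 0.295, 0.229 and 0.202 CPM in R-11272 MAMP libraries. Controls held 0.704, 1.18 and 0.807 CPM in LD and 0.732, 1.09 and 1.14 CPM in LDX, against 1.29, 1.71 and 1.39 CPM in R-11268 and 0.549, 0.562 and 0.422 CPM in R-11272. Here the parental and RIL controls overlapped, with a log2 difference of 0.10, and the levels after MAMP differed by 1.86.

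The response of Glyma11g02050.1 was 1.71 in LD and 0.50 in LDX, against -0.22 for R-11268 and -1.09 for R-11272, so the difference was 1.76 ± 0.26 (SE; edgeR adjusted p = 0.0109; counting interval 1.09 to 2.43). Neither call survived without LD, where the adjusted p was 1.00 for Glyma14g02290.1 and 0.874 for Glyma11g02050.1, nor without R-11272 (0.11 and 0.513). The call for Glyma14g02290.1 also ended without R-11268 (0.211), and that for Glyma11g02050.1 without the pool R-11268 replicate 1 (0.0523) or R-11272 replicate 2 (0.0776).

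The opposite pattern, with a mean response negative over the parents and positive over the RILs, held 6 transcripts with median responses of -1.07 in the parents and 0.47 in the RILs. By line the medians of the 6 were -1.27 in LD and -0.89 in LDX, against -0.12 for R-11268 and 1.09 for R-11272, the highest of the 4 lines. Both parents were negative and R-11272 positive in 6 of the 6, while R-11268 was negative in 4 and positive in 2. As medians over the 6, the parents were -0.87 relative to the RILs in MAMP libraries and 0.68 in control libraries. Glyma15g05760.1 on chromosome 15 had the largest difference of the 22. It held 0.266, 0.1515 and 0.187 CPM in LD MAMP and 0.102, 0.11 and 0.0861 CPM in LDX MAMP libraries, against 0.694, 0.438 and 0.324 CPM in R-11268 MAMP and 0.689, 1.19 and 0.303 CPM in R-11272 MAMP libraries. Control libraries held 1.08, 0.75 and 0.749 CPM in LD and 0.503, 0.3455 and 0.439 CPM in LDX, against 0.7001, 0.488 and 0.360 CPM in R-11268 and 0.0915, 0.187 and 0.0527 CPM in R-11272. After MAMP every parental library lay below every RIL library, and in controls R-11272 lay below all other lines.

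The responses of Glyma15g05760.1 were -2.06 in LD and -2.02 in LDX, against -0.09 for R-11268 and 2.67 for R-11272, so the difference was -3.33 ± 0.48 (SE; edgeR adjusted p = 0.0109). The R-11272 controls held 5.964 estimated counts over 3 libraries and the LDX MAMP libraries 4.946, and the counting interval of the difference was -4.47 to -2.19. Glyma15g11930.1 on the same chromosome was more abundant. It held 5.86, 8.865 and 8.04 CPM in LD MAMP and 9.24, 9.30 and 16.2 CPM in LDX MAMP libraries, against 10.35, 9.42 and 8.37 CPM in R-11268 MAMP and 18.2, 21.8 and 22.5 CPM in R-11272 MAMP libraries. In controls it held 12.35, 19.3 and 17.2 CPM in LD and 17.0, 16.9 and 28.9 CPM in LDX, against 14.2, 12.9 and 11.5 CPM in R-11268 and 5.12, 6.12 and 6.33 CPM in R-11272. MAMP levels lay below control levels within LD, LDX and R-11268 pools alike, and above them in R-11272.

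The responses of Glyma15g11930.1 were -1.10 in LD and -0.85 in LDX, against -0.45 for R-11268 and 1.83 for R-11272, so the difference was -1.66 ± 0.25 (SE; edgeR adjusted p = 0.0112; counting interval -1.84 to -1.49). Without R-11272 the difference was -0.52 (edgeR adjusted p = 1.00), so this call rests on that line, and it ended as well without LD (0.304) or the pools R-11268 replicate 1 (0.0684), R-11268 replicate 2 (0.0630) or R-11272 replicate 2 (0.0637). The call for Glyma15g05760.1 ended without LD (0.328), LDX (0.0909), R-11272 (0.396), the pool LDX replicate 1 (0.0571) or the 3 pools apart (0.0847). With the lines as replicates the adjusted p of these 4 named transcripts ran from 0.568 to 0.706.

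**Figure D3:**
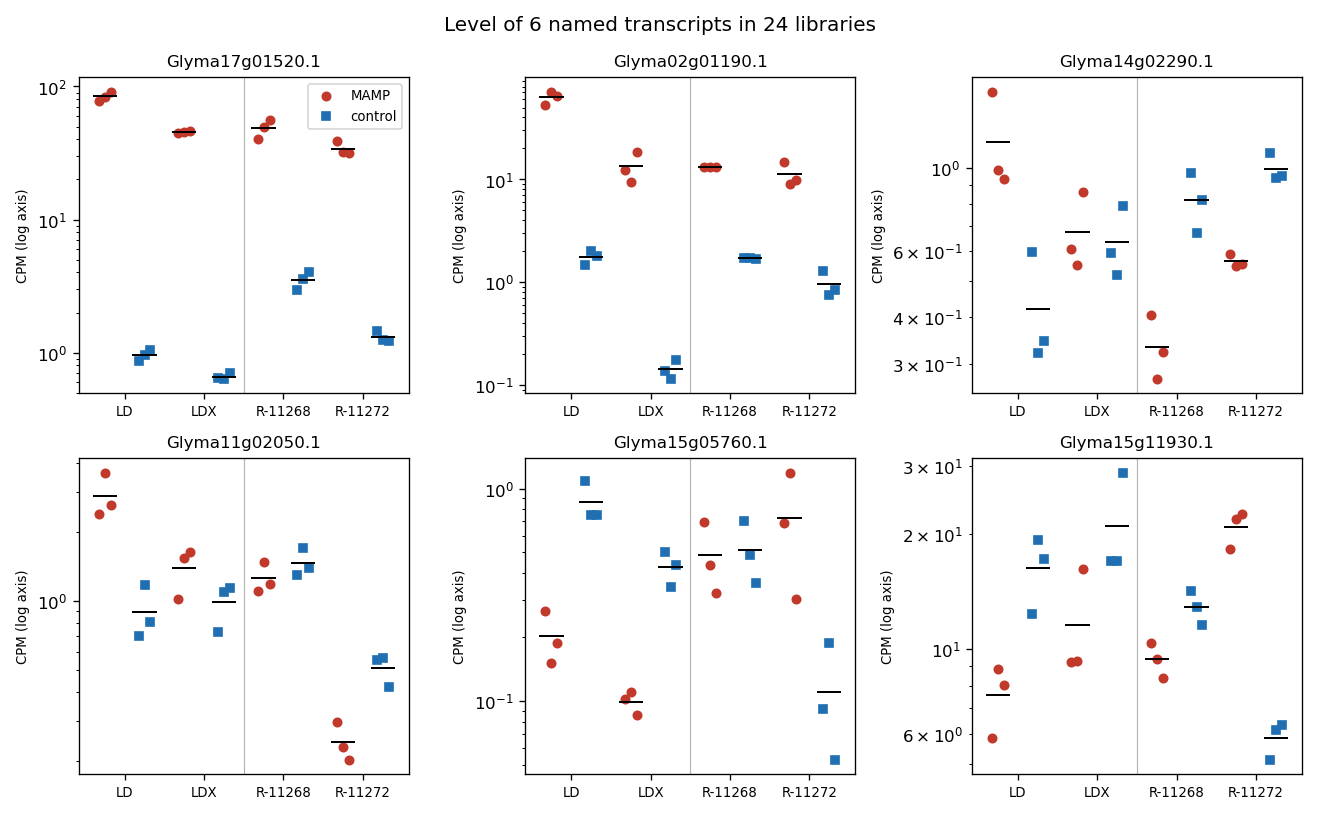
CPM on a log axis in each of the 24 libraries for the 6 named transcripts, with parents left of the RILs, MAMP libraries (red circles) left of control libraries (blue squares) and a black bar at each group mean. In the panel of Glyma17g01520.1 the control libraries of LD and LDX reach at most 1.04 CPM and those of the RILs start at 1.21 CPM; in that of Glyma15g11930.1 R-11272 alone has MAMP above control.

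Beyond the calls, the median difference was larger the stronger the shared rise. Averaged over the 4 lines, 2574 transcripts were called higher after MAMP, 1972 in the mean of the parents (5.94% of all tested) and 1772 in that of the RILs (5.34%). These comparisons share all their libraries with the response difference, so the lists below describe it and add no independent test. Where the 4-line mean rise was under 1 on the log2 scale (1051 transcripts), the parents' response exceeded that of the RILs by a median of 0.06. The median was 0.10 at a rise of 1 to 2 (774 transcripts), 0.27 at 2 to 3 (419), 0.50 at 3 to 4 (214), 1.45 at 4 to 5 (79) and 1.55 at 5 or more (37). The last of these moved to 1.03 with group totals raised to at least 3 counts, and to 2.38 without R-11272, so it is not shown to exceed that at 4 to 5. Over all tested transcripts it was 0.02. The 664 transcripts called lower after MAMP had a median difference of -0.01, with 135 (20.3%) ordered with both parents above both RILs and 142 (21.4%) with both below, close to the shares over all tested.

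**Figure D4:**
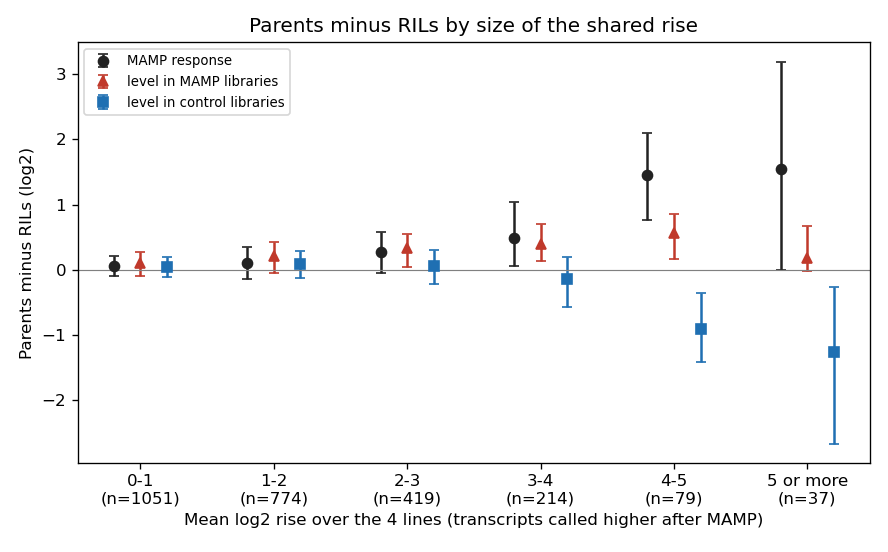
Parents minus RILs (y axis, log2) in MAMP response, in level in MAMP libraries and in level in control libraries, as medians with quartiles, by the mean log2 rise over the 4 lines (x axis, with the number of transcripts). The median response difference climbs from 0.06 to 1.55 across the bins while the MAMP difference peaks at 0.57 in the bin of 4 to 5 and the control difference drops from 0.04 to -1.26.

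In the 116 transcripts that rose 16-fold or more, a limit chosen after seeing these bins, median log2 responses were 5.51 in LD and 5.29 in LDX, against 3.76 for R-11268 and 3.90 for R-11272. The difference was positive in 95 (81.9%, against 53.1% of all tested), and in 80 both parents lay above both RILs (69.0%, against 20.5%). Its median was 1.46, with quartiles of 0.65 and 2.26. Of the 116, 10 were called individually, all more positive in the parents, as were 0.0482% of all tested. The limit of 16-fold was set after seeing these differences, so this count only describes the set. Refits without LD, LDX, R-11268 or R-11272 gave medians of 1.47, 1.44, 1.37 and 1.62. Without the 3 pools apart the median was 1.42, and leaving out any single pool gave 1.42 to 1.49. Leaving out 1 library while keeping the other of its pool gave 0.95 (without LDX MAMP replicate 3) to 1.91 (without R-11272 MAMP replicate 1). The 64 that averaged at least 100 estimated counts per library had a median of 1.44. For 39 of the 116 a group held 3 estimated counts or fewer, and raising such totals to a floor of 3 gave 1.43. For smaller rises LD decided the sign: without LD the median was -0.05 for rises under 1 on the log2 scale and -0.07 for 1 to 2.

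Among the 116, the gap was larger in control than in MAMP libraries. With all libraries this did not hold at a lower limit. The parents minus RILs median was 0.48 in MAMP libraries and -0.97 in control libraries for the 116 transcripts, and their control level was lower in the parents for 84.5%, against 50.2% of all tested. For the 330 transcripts that rose 8-fold or more the medians were 0.42 in MAMP libraries and -0.32 in control libraries. In the bin of 3 to 4 they were 0.39 and -0.15, so in both sets the MAMP gap was the larger one. Without the 3 pools apart, the 8-fold set (326 transcripts) had 0.32 in MAMP libraries and -0.44 in control libraries. There the control gap was the larger, so the order at 8-fold depended on those pools. The bin of 3 to 4 then had 0.32 and -0.25. Median levels of the 116 were also set against the mean of the 4 lines, on the log2 scale. After MAMP they deviated by 0.28 in LD and 0.07 in LDX, against -0.32 for R-11268 and -0.0034 for R-11272. In controls the deviations were -0.37 in LD and -0.35 in LDX, against 0.27 for R-11268 and 0.40 for R-11272. Of the 116, LD had the highest level after MAMP for 61 (52.6%). That share was much the same for rises under 1 on the log2 scale (48.9%), so it is not particular to the 116. The highest control level was that of R-11268 for 41 (35.3%) and of R-11272 for 58 (50%), against 25.7% and 16.8% for rises under 1. In bulk leaf slices, more RNA per cell and more responding cells cannot be told apart.

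By library, the median log2 level of the 116 after MAMP was 3.90, 4.48 and 4.59 in LD and 3.27, 3.39 and 4.71 in LDX, against 3.52, 3.53 and 3.66 for R-11268 and 4.83, 3.48 and 3.41 for R-11272. In controls it was -0.85, -0.39 and -0.58 in LD and -1.52, -1.10 and -0.28 in LDX, against 0.13, -0.08 and 0.07 for R-11268 and 0.66, -0.25 and -0.31 for R-11272. These levels carry the prior count of 2, which pulls the low control levels up. The pools LDX replicate 3 and R-11272 replicate 1, which stand apart in the whole table, were high in both treatments. The third LDX control overlapped those of R-11272, while the LD controls and the other LDX controls lay below all RIL controls. Without the 3 pools the MAMP difference was 0.33 and the control difference -1.10.

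**Figure D5:**
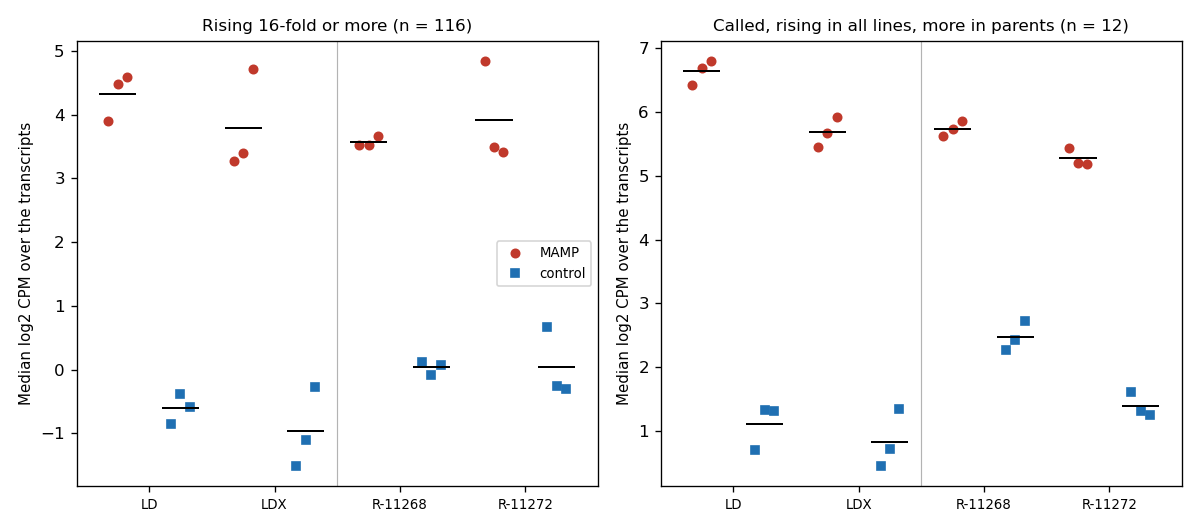
Median log2 CPM (prior count 2) by library over the 116 transcripts that rose 16-fold or more (left) and over 12 called transcripts (right). The 12 rose in all lines and more in the parents. MAMP libraries are red circles, control libraries blue squares and group means bars. In the left panel the third LDX pool (4.71 after MAMP) and the first R-11272 pool (4.83) stand above the other pools of their lines, and in the right panel R-11268 controls (2.27 to 2.72) lie above all other controls.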

How the data were processed

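RNA-seq libraries were made from soybean leaf slices, per the labels' protocols with TruSeq v2 kits. The authors deposited 1 table of estimated counts per transcript, and the submitters' processing notes name Bowtie 0.12.7, TopHat 1.4.1 and Cufflinks 1.1.0. The sources used here do not give the step that made these counts, its build or its annotation. Columns were matched to labels by line, treatment letter and replicate number, with C read as control and P as MAMP.

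Estimated counts were rounded to whole numbers and fitted with edgeR 4.0.16 in R 4.3.3: TMM scaling, filterByExpr (minimum count 10, minimum total 15), 8 group means, 16 residual degrees of freedom, quasi-likelihood tests, and Benjamini-Hochberg adjustment over 33214 transcripts at 0.05. Alternatives used limma 3.58.1 and DESeq2 1.42.0. Counting intervals (95%) came from group totals and cover counting error only. Per the labels' protocols, slices of pooled leaves were divided between the treatments, and same-numbered MAMP and control libraries of a line were taken as a pool. Their deviations correlated at 0.987 or more, against at most 0.809 for other numbers, but the fitted form of the values fixes this, so it is no test of a shared pool.

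The 6 named transcripts were, by rule, the ordered calls with the lowest adjusted p, up to 2 in each pattern, since 0 identifiers matched a table of names. Gene lists and leaf markers, set by product name, could therefore not be applied. The members and lists were chosen with earlier results of these data known, and the 16-fold and 8-fold sets after seeing them.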

Additional observations from a re-analysis of the deposited data

Results flagged for a closer look

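The test of the difference itself picked out 22 transcripts whose MAMP response differed between the parents and the RILs. The named ones had log2 differences of 2.04 for Glyma17g01520.1, 2.59 for Glyma02g01190.1, 1.80 for Glyma14g02290.1, 1.76 for Glyma11g02050.1, -3.33 for Glyma15g05760.1 and -1.66 for Glyma15g11930.1, as parents minus RILs. All were called by edgeR on the spread between pools, and none with the 4 lines as replicates, where the smallest adjusted p of any transcript was 0.196 (limma).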

How the results depend on the processing

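For the 22 response calls, no filter on low counts gave 46, a mean of at least 100 estimated counts 9, limma voom with quality weights per line 105 (57 more positive in parents and 48 more negative), and the lines as replicates 0. Without LD the count was 4, without R-11272 9, and without the 3 pools apart, chosen after seeing the data, 123. Leaving out 1 library or pool gave 6 to 25. For the parents' mean response (2306 calls) the mean of at least 100 gave 1377, leaving out LD 984 and leaving out the 3 pools 3505. For the RILs' mean response (2041 calls) the same filter gave 1243, leaving out R-11268 1150, leaving out R-11272 1187 and leaving out the 3 pools 4460. For parents minus RILs in MAMP libraries (1436 calls) the filter gave 221, the lines as replicates 0, and leaving out LD 759, LDX 3878, R-11272 594 and the 3 pools 2850; leaving out 1 library or pool gave 712 (R-11268 replicate 1) to 1849 (R-11272 replicate 1). In control libraries (675 calls) the filter gave 68, the lines as replicates 0, leaving out LDX 1110 and the 3 pools 1471; leaving out 1 library or pool gave 406 (LDX control replicate 2) to 1178 (LDX replicate 1). The cause of these shifts was not tested. Some of these settings hold fewer transcripts or libraries, but in some of those the calls rose.

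The median difference of the 2574 rising transcripts, 0.12, turned to -0.016 without LD. For rises of 8-fold or more it was 0.75, with 0.92 without LDX and 0.37 to 1.12 without 1 library or pool. For 16-fold or more it was 1.46, with 1.62 without R-11272 and 0.95 to 1.91 without 1 library or pool. No named difference reversed.

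The replicate block, with pool as the block, gave 11063 response calls, 16248 for the parents and 15546 for the RILs; it is void, since the fitted values leave no scatter of a response between pools. Depth limits the scarce transcripts. The spread between fitted values may be too small, and not for scarce transcripts only. The SE of the fit was below the counting SE for Glyma17g01520.1 (0.15 against 0.20) and Glyma02g01190.1 (0.27 against 0.34). It was also below it for Glyma14g02290.1 (0.26 against 0.37), Glyma11g02050.1 (0.26 against 0.34) and Glyma15g05760.1 (0.48 against 0.58). Of the named transcripts, only Glyma15g11930.1 had the larger SE in the fit (0.25 against 0.09).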
